A study of Mus musculus with 2 samples.

Results

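The Gimap gene cluster is a stretch of mouse chromosome 6 that holds 7 named genes, Gimap8, Gimap9, Gimap4, Gimap6, Gimap7, Gimap1 and Gimap5 in their order along the chromosome. DNase I hypersensitive sites (DHS), here the peaks of a sequenced DNase I digest, were assigned to it when they overlapped the 7 gene bodies or the 50 kb on either side, which on mm9 is chr6:48547233-48754209. This gave 39 DHS of 47542 in the deposited list. The cells were splenic B cells from C57/Bl6 mice of 8 weeks with the genotype Trp53+/+, mock-treated and enriched with B220 MicroBeads. The input library came from cells with the same labels, and whether animals were pooled is not stated for either. There was 1 DNaseI library and no replicate, so no difference was tested, and intervals at the 95% level cover counting error only. Neighbouring DHS are also not independent of each other. The stretch was chosen by the density of its DHS and by the DHS at its promoters in this library, so its number, density and promoter counts are given as a description. Each peak carries a score, the authors' own value on a scale that is not stated. At the edges of the window, the first DHS inside had a score of 98.6 and lay 3929 bp from the edge, and the last DHS before it, over the start of Repin1, had a score of 51.5 and lay 2134 bp outside. On the other side the last DHS inside scored 64.7 and the first beyond scored 9.72.

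GIMAP proteins (GTPases of immunity-associated proteins) are GTP-binding proteins found mainly in lymphocytes. Their genes sit side by side and arose by duplication, and the proteins act largely at intracellular membranes, where they bear on how long naive lymphocytes survive. Loss of Gimap5, whose product is found at lysosomes, causes a loss of T cells in rodents, and Gimap1 is needed for normal numbers of mature T and B cells. DNase I cuts accessible DNA more readily than DNA wrapped in nucleosomes, so that DHS mark promoters, enhancers and other regulatory DNA.

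The bases just before the member transcription start sites (TSSs) are shown first, because the base composition of the DHS is a main result. Each line gives the 200 bases before a TSS, 5′ to 3′ in the direction of transcription, with CpG dinucleotides in capitals. Gimap6 lies on the minus strand and the others on the plus strand. Gimap7 has its TSS 14 bp after the first TSS of Gimap1, so that the line of Gimap7 ends before that first TSS, and the line of Gimap1 ends before its second group of TSSs. The positions on mm9 are chr6:48597033-48597232 for Gimap8, chr6:48625928-48626127 for Gimap9, chr6:48634348-48634547 for Gimap4, chr6:48658225-48658424 for Gimap6, chr6:48668406-48668605 for Gimap7, chr6:48688853-48689052 for Gimap1 and chr6:48695996-48696195 for Gimap5.
Gimap8: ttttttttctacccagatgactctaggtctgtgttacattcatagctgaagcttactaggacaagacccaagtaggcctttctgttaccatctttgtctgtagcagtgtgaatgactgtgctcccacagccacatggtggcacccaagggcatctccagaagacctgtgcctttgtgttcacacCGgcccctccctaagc
Gimap9: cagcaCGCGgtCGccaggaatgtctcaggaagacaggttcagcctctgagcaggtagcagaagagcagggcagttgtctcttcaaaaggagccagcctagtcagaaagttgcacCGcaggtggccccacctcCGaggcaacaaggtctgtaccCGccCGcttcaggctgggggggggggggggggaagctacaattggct
Gimap4: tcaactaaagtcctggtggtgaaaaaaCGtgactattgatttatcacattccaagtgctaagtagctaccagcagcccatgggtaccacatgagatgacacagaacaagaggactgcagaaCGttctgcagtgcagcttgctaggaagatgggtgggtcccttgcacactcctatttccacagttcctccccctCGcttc
Gimap6: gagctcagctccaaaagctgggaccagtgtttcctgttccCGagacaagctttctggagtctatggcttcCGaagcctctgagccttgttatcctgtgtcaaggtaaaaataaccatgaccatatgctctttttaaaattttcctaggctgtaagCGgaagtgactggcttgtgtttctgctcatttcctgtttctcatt
Gimap7: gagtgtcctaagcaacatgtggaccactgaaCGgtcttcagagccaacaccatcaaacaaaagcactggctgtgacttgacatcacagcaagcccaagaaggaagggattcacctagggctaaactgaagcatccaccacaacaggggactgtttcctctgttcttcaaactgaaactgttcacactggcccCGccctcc
Gimap1: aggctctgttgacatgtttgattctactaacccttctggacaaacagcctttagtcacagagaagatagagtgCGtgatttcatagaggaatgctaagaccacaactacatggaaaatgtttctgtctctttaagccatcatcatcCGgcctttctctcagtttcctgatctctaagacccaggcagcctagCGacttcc
Gimap5: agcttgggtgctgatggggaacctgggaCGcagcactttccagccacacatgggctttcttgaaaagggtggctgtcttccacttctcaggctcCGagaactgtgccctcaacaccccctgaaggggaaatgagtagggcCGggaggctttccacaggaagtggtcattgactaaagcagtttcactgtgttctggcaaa
The 7 stretches hold from 1 CpG (Gimap8) to 7 (Gimap9), with a median of 3. Over 22345 protein-coding genes the median is 7, with quartiles at 2 and 15. All of these bases except those of Gimap4 were inside a DHS.

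All 7 members had a DHS in the promoter window, between 5 kb before and 2 kb after an annotated TSS, as did 57.0% of 22350 protein-coding genes and 39.2% of the 13738 genes without a CpG-rich promoter, to which the 7 members belong. A promoter was taken as CpG-rich when the 1000 bp around its first TSS had at least 55% GC and a CpG ratio, observed over expected, of at least 0.6. All 7 also had one within 1 kb of a TSS, as did 53.7% of protein-coding genes. A DHS lay over an annotated TSS in 6 members, against 46.6% of protein-coding genes, and against 29.4% of those without a CpG-rich promoter. Since the stretch was chosen for its DHS, nothing is read from these counts. In all, 8 DHS lay over member TSSs. Their scores ran from 22.6 to 196, and the median over all peaks was 32.6.

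The 2 highest scores were at Gimap5 and Gimap6, which a single library cannot order. For Gimap5 (ENSMUSG00000043505.7, chr6:48696196-48704209, plus strand), a single DHS at chr6:48695087-48698381 covered its TSSs and had a score of 196, higher than 96.4% of all peaks. It was 3295 bp wide and ran from before the first exon into the gene. No other DHS lay over the gene body, of which 27.3% was covered.

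Gimap6 (ENSMUSG00000047867.5, chr6:48651581-48658224, minus strand) encodes a protein that has been tied to autophagy. The DHS at chr6:48657702-48659075 covered its outer TSS with a score of 175, and another over an inner TSS scored 71.3. Gimap6 was the member with the largest share of its body under DHS, with 6 DHS over 60.5% of its length. A further 3 DHS lay upstream within its promoter window, the last of them at chr6:48662023-48663117 with a score of 93.65. Among genes with a DHS over a TSS, the start scores of Gimap5 and Gimap6 were at percentiles 86.3 and 81.9.

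Scores at Gimap9, Gimap1 and Gimap8 lay close together in the middle of the range. At Gimap9 (ENSMUSG00000051124.6, chr6:48626128-48629113, plus strand) the DHS over the outer TSS scored 96.7, and that over an inner TSS scored 22.6, and DHS covered 39.6% of the gene. Gimap1 (ENSMUSG00000090019.2, chr6:48668606-48702599, plus strand) had 94.4 over its second group of TSSs, at chr6:48688632-48689672, where the antisense transcript Gm3345 overlaps it. Its long body spans Gimap7 and runs into Gimap5, and 8 DHS lay over 30.6% of it. These 8 include the DHS over the TSSs of Gimap7 and Gimap5. Gimap8 (ENSMUSG00000064262.4, chr6:48597233-48610874, plus strand), which encodes a long protein with several GTP-binding domains, had 81.4, and only 6.77% of its body was under DHS. These scores cannot be ordered either. Their percentiles among genes with a DHS over a TSS were 45.6, 44.2 and 35.4.

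Gimap7 (ENSMUSG00000043931.9, chr6:48668620-48674635, plus strand) shared its DHS with the first TSS of Gimap1. That DHS, at chr6:48667886-48669198, scored 57.1 and was the only one within the promoter window of Gimap7. The 6 members with a DHS over a TSS thus include a pair that cannot be told apart there.

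Gimap4 (ENSMUSG00000054435.8, chr6:48634548-48642061, plus strand) differed from the other members in having no DHS over a TSS. The nearest, at chr6:48634800-48635707, began 220 bp downstream of a TSS and scored 14.3, which is above 15.7% of all peaks. The best of the 5 DHS in its promoter window scored 30.3 and was centred 2368 bp upstream. Its body was nevertheless well covered, with 5 DHS over 47.7% of the length, and the highest of these, at 40.6, lay over an exon. The depth is unknown, so a DHS missed for lack of reads at the TSS of Gimap4 cannot be told from protected DNA.

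**Figure D1:**
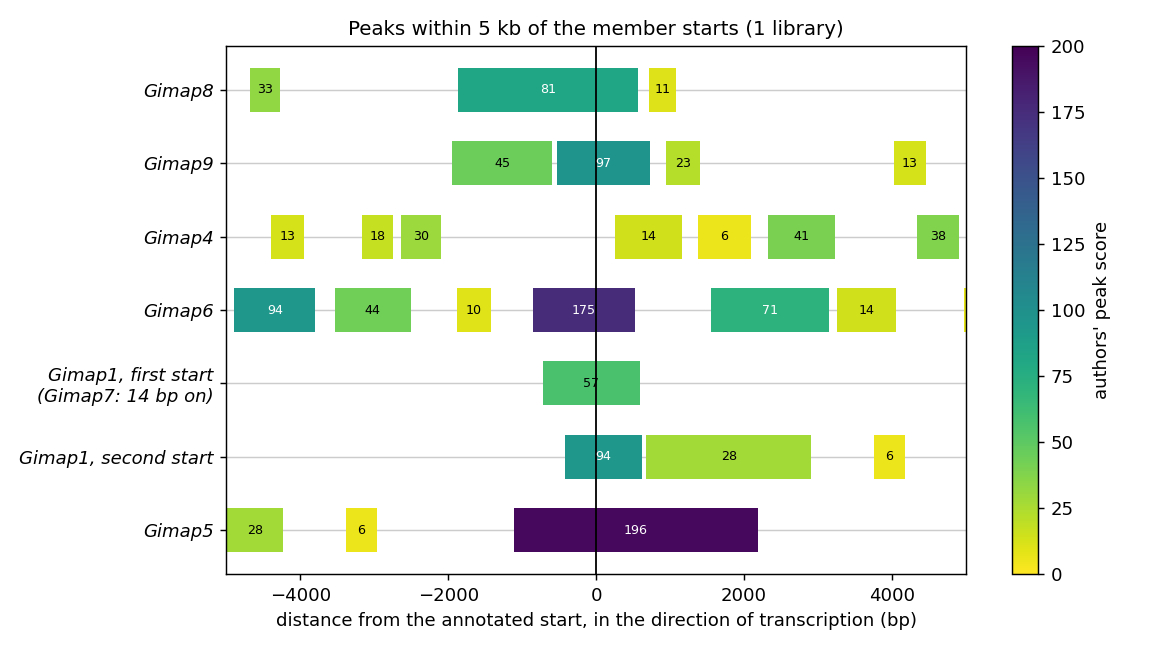
DHS within 5 kb of member TSSs, aligned at 0 and drawn in the direction of transcription (bp), with the authors' score as colour and number. DHS with scores of 81, 97, 175, 57, 94 and 196 cross the line at the TSS of Gimap8, Gimap9, Gimap6, Gimap1 with Gimap7, the second Gimap1 start and Gimap5, and none crosses it at Gimap4, where the nearest DHS scores 14.

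The 39 DHS were spread unevenly over the stretch. They amounted to 18.8 per 100 kb (Poisson interval 13.4 to 25.8), with 21.0% of the bases under a DHS, against 1.80 per 100 kb and 1.67% over chromosomes 1 to 19 and X. Of 12741 windows of the same length laid end to end over these chromosomes, 5 (0.0392%) held at least 39 DHS, and the fullest held 43. Of the 386 windows with at least as many protein-coding genes, 3 (0.777%) did, with a median of 14. Among the intervals between genes the covered share was largest from Gimap4 to Gimap6, where DHS covered 72.3% of 9519 bp. From the second TSS group of Gimap1 to Gimap5, which lies inside the Gimap1 body and not between genes, they covered 61.3% of 7143 bp. Between Gimap5 and Gimap3, a paralogue that is not among the 7, no DHS was called in 10878 bp, and the gap between neighbouring DHS there was 20364 bp.

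The widest DHS, 3501 bp at chr6:48648120-48651620, lay between Gimap4 and Gimap6 and ended over the last bases of the Gimap6 transcript. It scored 105, the highest score outside a promoter window. Among the other distal DHS, that at chr6:48682225-48683779 inside the long form of Gimap1 scored 96.8, although 18.8% of its 31-base words occur elsewhere in the assembly. The DHS nearest to the edge of the window, at chr6:48551162-48552888, was intergenic in the annotation and scored 98.6. Its nearest TSS was that of Repin1, at 7707 bp.

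By their centres, 33 of the 39 DHS had a member TSS as the nearest. Of these, 10 belonged to Gimap6, 9 to Gimap4, 5 to Gimap9, 3 each to Gimap8 and Gimap1, 2 to Gimap7 and 1 to Gimap5. The split between Gimap1 and Gimap7 is arbitrary, since the DHS over the TSSs of both went to Gimap1. The 2 of Gimap7 lay in introns of Gimap1, centred 6645 and 7363 bp from the Gimap7 TSS. The number per member did not follow the score at the TSS, since Gimap5, at 196, had 1 and Gimap4 with no DHS over a TSS had 9. The others went to Gimap3 (2), Gm3345 (2), AI854703 (1) and Repin1 (1), while the neighbour Zfp775 had none. Gimap3 had no DHS over its TSS, and its nearest lay 2228 bp upstream with a score of 19.02. By distance, 28.2% of the DHS were centred within 1 kb of a TSS and 46.2% between 1 and 5 kb, against 33.3% and 17.8% of all peaks. The median distance from a DHS centre to the nearest TSS was 2748 bp in the stretch and 4644 bp over all peaks.

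**Figure D2:**
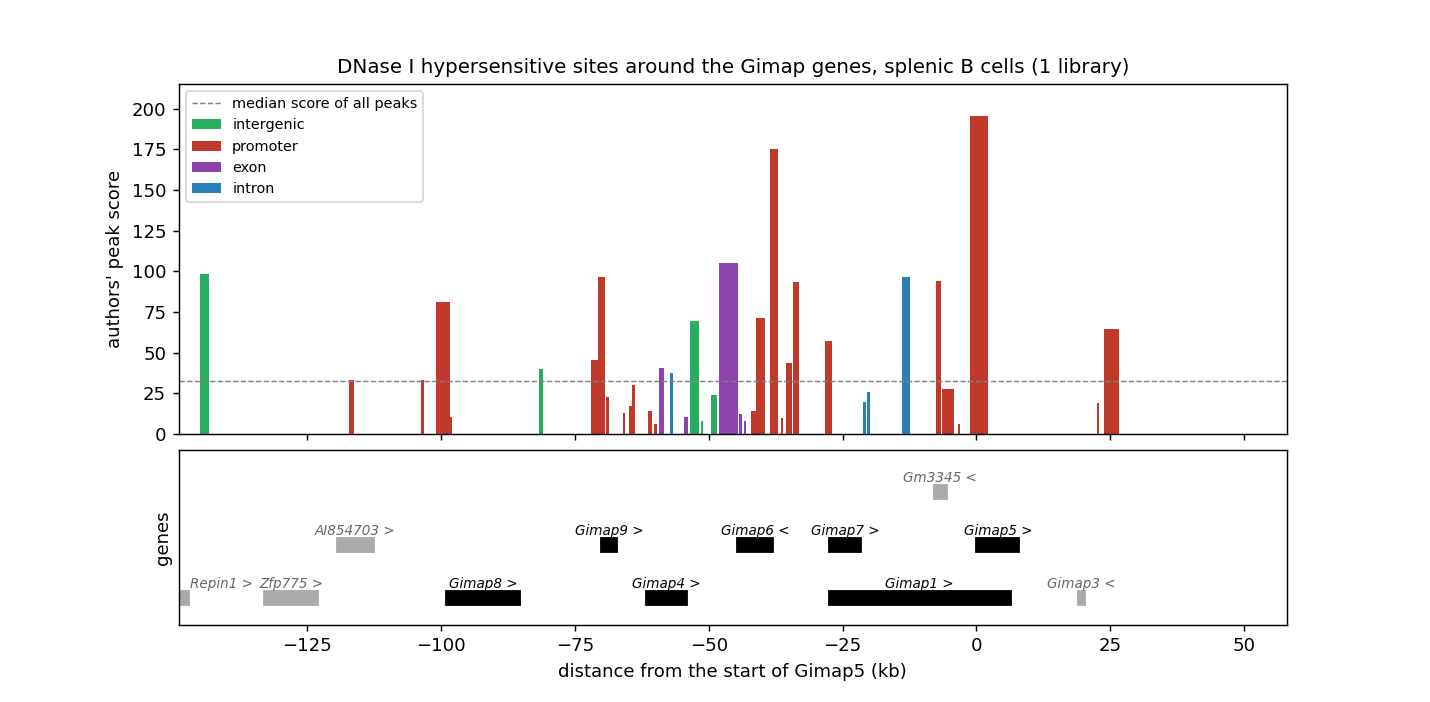
Map of the Gimap stretch, with distance from the start of Gimap5 in kb on the horizontal axis and the authors' score as bar height. Each bar is a DHS drawn to its width and coloured by class, and genes are drawn below with members in black, other genes in grey and the direction of transcription as > or <. The dashed line is the median score of all peaks, 32.6. The tallest bars, 196 and 175, stand at the starts of Gimap5 and Gimap6, and the widest, 3501 bp, stands between Gimap4 and Gimap6.

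In score and width the DHS were near the middle of all peaks. The median score was 33.3 (interval of the median 19 to 57.1), close to the 32.6 of all peaks, and scores ran from 6.12 to 196 with quartiles at 14.4 and 70.5. The median width was 897 bp (613 to 1254), and the interval included the 760 bp of all peaks. They lay close together, which follows from how the stretch was chosen. The median gap was 861 bp, against 7211 bp over all peaks, and 89.5% of gaps (75.9 to 95.8) were under 10 kb, against 55.9%. By class, 25 of the 39 DHS (64.1%, Wilson interval 48.4 to 77.3) fell in a promoter window, compared with 47.5% of all peaks. A further 5 were exonic, 4 intronic and 5 intergenic, where 5.15%, 21.7% and 25.7% of all peaks fell.

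Base composition was not used to choose the stretch. The DHS were poor in CpG. Their median CpG ratio, the number of CpG over that expected from the C and G content, was 0.145 (0.108 to 0.210), against 0.288 over all peaks, and 35 of the 39 were below the latter. The median GC content was 46.2% (44.3 to 48.0) against 49.3%, and 33 of the 39 were below it. The 25 promoter DHS had a median CpG ratio of 0.202 (0.132 to 0.229), against 0.512 for promoter peaks in general. None of the 7 members had a CpG-rich promoter, a class to which 38.5% of protein-coding genes belong, and in the 1000 bp around the first TSS their CpG ratios ran from 0.0794 to 0.300. The difference was also seen beside all genes without a CpG-rich promoter. That class is not matched to the members in CpG, and the ratios of its DHS ran up to 1.21. The 8 DHS over member TSSs had CpG ratios of 0.0878 to 0.306 with a median of 0.233, while 4337 DHS over TSSs of genes without a CpG-rich promoter had a median of 0.545 and quartiles at 0.402 and 0.662. All 8 lay below the lower quartile.

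Only 3 DHS of the stretch had a CpG ratio above 0.5, and none of them covered a member TSS. These were the intergenic DHS near Repin1 (0.560), the DHS in AI854703 (0.645, score 33.3) and a DHS of 417 bp over an exon of Gimap1 (0.791), which had the lowest score of all, 6.12. The contrast between the intergenic DHS near Repin1 and the widest DHS is shown by the 300 bases at the centre of each, on the plus strand with CpG in capitals, at chr6:48551875-48552174 and chr6:48649720-48650019.
DHS near Repin1: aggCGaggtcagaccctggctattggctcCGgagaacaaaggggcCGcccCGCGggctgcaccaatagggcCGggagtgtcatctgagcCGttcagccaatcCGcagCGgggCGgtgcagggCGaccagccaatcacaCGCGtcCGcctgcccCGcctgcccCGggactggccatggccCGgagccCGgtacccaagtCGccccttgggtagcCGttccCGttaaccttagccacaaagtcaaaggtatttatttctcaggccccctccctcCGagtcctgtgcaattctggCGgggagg
DHS between Gimap4 and Gimap6: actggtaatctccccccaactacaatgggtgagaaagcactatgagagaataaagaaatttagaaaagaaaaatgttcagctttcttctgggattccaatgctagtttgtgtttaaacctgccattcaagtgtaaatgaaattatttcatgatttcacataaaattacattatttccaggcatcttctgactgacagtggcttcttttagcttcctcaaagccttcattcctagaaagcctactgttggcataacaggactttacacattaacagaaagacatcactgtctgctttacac
The former holds 23 CpG and has a GC content of 65.7%, and the latter holds 0 and has 36.7%.

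**Figure D3:**
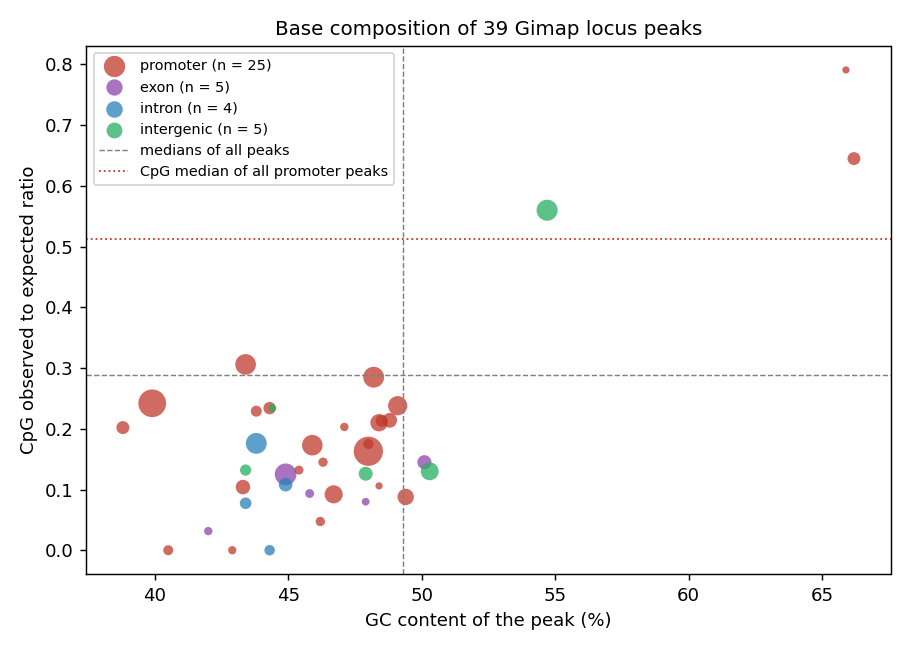
GC content (%) and ratio of observed to expected CpG of the 39 DHS, as points coloured by class with an area that grows with the score. Dashed lines mark the medians of all peaks (49.3% and 0.288) and the dotted line that of all promoter peaks (0.512), and most points lie below and to the left of the dashed lines, with 3 far above.

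Words that resemble the binding sites of lymphocyte transcription factors were searched on both strands in the central 300 bp of each DHS. They were ETS (AGGAAGT), PU.1 (GAGGAAGT, which contains the ETS word), RUNX (TGTGGTT), FOXO (TGTTTAC), E-box (CAGCTG), TCF/LEF (CTTTGAA) and Ikaros (TGGGAA), and longer words with free positions for ISRE, an ETS-IRF composite, kappa B, CTCF and the p53 element. The E-box word reads the same on both strands. At least 1 was present in 53.8% of the 39 DHS (38.6 to 68.4) and in 56.9% of all peaks. Most shares could not be told from those of all peaks at this number of DHS. The Ikaros word was in 7 (17.9%, 8.98 to 32.7) against 25.6%, the ETS word in 5 (12.8%, 5.60 to 26.7) against 10.8%, and the E-box in 3 (7.69%, 2.65 to 20.3) against 17.5%. The ISRE and TCF/LEF words were also in 3 each, against 3.95% and 6.01%, and the RUNX and FOXO words in 2 each (5.13%), against 6.79% and 3.63%.

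The PU.1 word was in 4 of the 39 DHS (10.3%, 4.06 to 23.6) against 3.61%. This was the only one of 12 shares whose interval left out the value of all peaks, and the intervals were not adjusted for their number. In the central 200 bp it was 5.13% (1.42 to 16.9) against 2.52%, and that interval includes the value of all peaks. Over whole peaks it was 17.9% (8.98 to 32.7) against 8.90%, and the FOXO word was in 20.5% (10.8 to 35.5) against 10.7%, so that both intervals left out the value of all peaks there. Both left it out narrowly, and the shares over whole peaks were not adjusted for peak width or base composition. The 4 DHS with the PU.1 word in the central 300 bp lay over the second TSS group of Gimap1, over exons of Gimap4 and Gimap6, and upstream of Gimap6. The CTCF, kappa B and ETS-IRF words were in none of the 39, which allows shares of up to 8.97%, above their shares in all peaks of 1.73%, 1.31% and 1.20%. Among the stretches before TSSs printed above, only that of Gimap5 holds any of the words, the ETS word, which is in 6.06% of such stretches over protein-coding genes. A match of letters does not show that a factor binds.

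**Figure D4:**
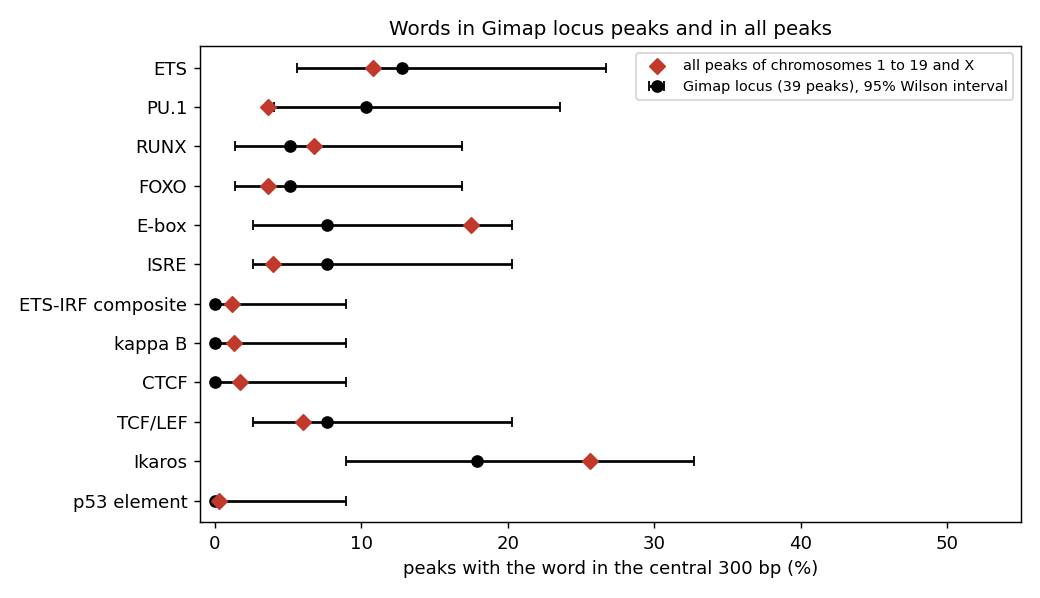
Share (%) of the 39 DHS with each word in the central 300 bp (black points, 95% Wilson intervals) beside the share of all peaks (red diamonds). All diamonds lie within the intervals except that of PU.1, at 3.61% against an interval from 4.06%.

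The study examined where p53 binds after irradiation, and the p53 element was therefore located in the whole stretch. It was taken as a pair of adjacent decamers of the p53 consensus with at most 2 mismatches, none of them in the C and G of a core. There were 2 elements in the window and neither was inside a DHS. Mismatched bases are in lower case.
Element upstream of AI854703: AGACAAGgTTGGACTTGTCC
Element upstream of Gimap5: GGACTTGaTTGcACATGTCT
The first, at chr6:48573541-48573560, had 1 mismatch and lay 5473 bp from the nearest DHS. The other, at chr6:48694629-48694648, had 2 mismatches and lay at -1557 bp from the nearest Gimap5 TSS and 439 bp from the DHS over it. Over all peaks the element was in 1.02% of whole peaks and in 0.329% of the central 300 bp.

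Near-identical copies of a sequence can share reads or lose them, and the Gimap genes are duplicates. In the 39 DHS, 3.76% of 31-base words occurred more than once in the assembly, against 11.7% of the words of the stretch outside DHS. The median per DHS was 0.202%. The highest share, 46.3%, was in a DHS of 367 bp with a score of 7.88 at chr6:48644796-48645162, which is uncertain for that reason. At the DHS over member TSSs the share was 12.3% for the outer TSS of Gimap6, 7.02% for the second TSS group of Gimap1, 6.70% for the outer TSS of Gimap9 and under 0.5% for the others. The part of shared reads in the scores was not tested.

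The stretch was set beside other dense groups of DHS, those at Ets1, which encodes a lymphocyte transcription factor, and at the class II H2 genes, which present antigen to T cells. Joined at gaps under 10 kb, 32 of the Gimap DHS formed a group at chr6:48614493-48698381, or 38.1 per 100 kb, with 29 at Ets1 (25.7 per 100 kb) and 27 at the class II H2 genes (28.2). DHS covered 40.9% of the Gimap group, 27.6% of that at Ets1 and 45.8% of that at class II H2. In the Gimap group 59.4% of DHS were at promoters (42.3 to 74.5), as against 6.90% at Ets1 (1.91 to 22.0), where 27 of the 29 were intronic, and 66.7% at class II H2 (47.8 to 81.4). The promoter shares are a description, since DHS at promoters were part of the choice. Median scores were 29.1 (14.4 to 57.1), 22.2 (15.4 to 38.2) and 57.6 (20.9 to 156). The median CpG ratio was 0.131 (0.0934 to 0.176) in the Gimap group, 0.245 (0.204 to 0.282) at Ets1 and 0.178 (0.113 to 0.284) at class II H2, so that the Gimap interval lay below that of Ets1 and overlapped that of class II H2.

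Since T cells also use Gimap genes, promoters of marker genes were checked. A promoter DHS was present at all 12 B cell genes, with top scores from 72.1 to 294, and at 6 of 15 T cell genes (40.0%), with top scores from 24.5 to 97.7, beside 57.0% of all protein-coding genes. A DHS covered a TSS in 12 of the former and in 2 of the latter, Cd2 and Lck, beside 46.6% of all protein-coding genes. The other 4 with a promoter DHS were Cd247, Cd5, Lat and Tcf7. No promoter DHS was called at Cd3d, Cd3e and Cd3g, which encode chains of the T cell receptor complex, at the coreceptor genes Cd4 and Cd8a, or at Zap70, Cd28, Trat1 and Bcl11b. By the same count a TSS was covered in 1 of 9 myeloid, 0 of 5 NK cell and 2 of 5 endothelial genes. A promoter DHS was found for 6 of the 9 myeloid genes (66.7%), with top scores from 12.3 to 59.8, and for 2 of the 5 NK cell genes (40.0%), at 16.1 and 26. Of the erythroid genes, Klf1 had one at 178 and Gata1, Epor and Alas2 had none. A promoter DHS was also found for 3 of the 5 endothelial genes (60%), Kdr at 8.92, Cdh5 at 132 and Pecam1 at 213. The DHS of Klf1 and Cdh5 lay in the promoter window but not over a TSS of these genes. Outside the B cell genes the shares given thus lay on either side of the 57.0% of all genes. In a bulk library a few highly accessible cells and many weakly accessible ones cannot be told apart, and the part of other cell types in the Gimap scores was not tested.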

How the data were processed

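Splenic B cells were profiled by DNase-seq in 1 library, with 1 input library. The deposited file of the DNaseI library gives each peak a position and a score, the authors' own value. The peak names are of the MACS type. The study's methods name BWA, mm9 and MACS with a threshold on p for its ChIP-seq, and whether the DNase-seq was treated alike, and the scale of the score, are not given in the sources used here. The submitters' processing notes name mm9, BWA 0.6.2 and SAMtools with no role. The file holds no read counts, so the depth is unknown and its effect on missed peaks cannot be judged. The input library was not analysed here, and the count over the erythroid marker list is not reported here.

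TSSs were those of GENCODE M1 on NCBI build 37 (mm9). Placement statistics used the 47474 peaks of chromosomes 1 to 19 and X. A peak was classed as promoter, exon, intron or intergenic in that order, by overlap of at least 1 bp. CpG-rich promoters had at least 55% GC and a CpG ratio of at least 0.6 over 1000 bp. Intervals are Wilson for shares, exact Poisson for densities and order statistics for medians. Percentiles are the share of peaks or genes with a lower score. Python 3.11.15, numpy 2.4.6, scipy 1.17.1 and pysam 0.24.0 were used, and the searches were tested on simulated data.

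The genes and lists were chosen with earlier results of these data known. Named are the 7 members, the other genes annotated in the window, the DHS over member TSSs or nearest to them, those with the highest and lowest scores and the widest, and Ets1 and class II H2 for comparison. The DHS with the 3 highest CpG ratios and the most repeated words were chosen after their values were seen. Alternatives were merging of neighbours less than 500 bp apart, dropping of low-scoring peaks, other flanks, promoter windows and TSS sets, and other stretches of the peak for words and composition.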

Additional observations from a re-analysis of the deposited data

How the results depend on the processing

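Of 46 alternative values of the main results, 29 stayed within their interval or within 1.5 times. The median score was 33.3 as reported, 31.8 with 20 kb flanks and 29.1 without flanks, so that it lay above the 32.6 of all peaks only in the first of these. When peaks scoring below the list's median were dropped, there were 20 DHS (9.66 per 100 kb, 14.8% of bases), with a median score of 70.5, a median width of 1332 bp, 68.4% of gaps under 10 kb and 17 nearest to a member TSS, as fewer peaks enter by construction. Gimap4 then had no promoter DHS, and 6 members kept theirs. Merging peaks closer than 500 bp gave 24 DHS (11.6 per 100 kb) with a median width of 1464 bp and a median score of 60.9, so the number of DHS rests on how the caller split them. Without flanks there were 31.8 per 100 kb and 33.0% of bases, and with 20 kb there were 25.9 per 100 kb. Within 1 kb of a TSS the promoter share was 33.3%. By their centres, 28.2% of the 39 DHS and 33.3% of all peaks lay within 1 kb of a TSS. The higher promoter share of the wide window was thus not seen by that measure. Words were present in 84.6% of whole peaks and in 38.5% of the central 200 bp, by construction of the length searched. Of 48 word shares 5 moved beyond their interval, 4 of them upward in whole peaks. The CpG ratio and GC content stayed within their intervals in each setting tried. No paired analysis was possible because there is 1 library. The unknown depth limits every statement that a DHS is absent.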
